A study of Drosophila melanogaster with 28 samples.

Results

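The genes described here are mamo, Cph, Sp1, acj6, OdsH, bi and Smr, 7 transcription factor and corepressor genes on the X chromosome of Drosophila melanogaster. Their members are binding sites, chosen by peak position. Every peak of the 9 deposited lists that overlapped a gene body by at least 1 bp was taken, and peaks overlapping each other by at least 1 bp were merged into a site. This gave 35 sites made of 75 peaks, out of 1098 merged regions and 2013 peaks in the whole series and 502 merged regions on X. The genes themselves were selected from results of these lists because they held peaks, so that they hold sites is no finding, and counts are given as a description with no test.

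The chromatin was reconstituted in vitro on genomic DNA purified from BG-3, a cell line derived from the central nervous system of Drosophila larvae. MSL2, CLAMP or a CLAMP mutant was allowed to bind singly, or MSL2 was combined with either form of CLAMP. Bound fragments were recovered with an antibody after crosslinking and partial MNase digestion. With the MSL2 antibody the groups were MSL2 + CLAMP mutant, MSL2 + CLAMP and MSL2, with 3 libraries each. With the CLAMP antibody they were MSL2 + CLAMP mutant, MSL2 + CLAMP, CLAMP mutant and CLAMP, with 2 libraries each, and with the FLAG-tag antibody CLAMP mutant and CLAMP, also with 2 each. Each antibody had a negative control group (3 groups, 7 libraries), whose labels name no added protein. All groups share the same source of DNA, and the labels do not say what the chromatin was assembled with, which proteins carry the FLAG tag or which part of CLAMP is altered in the mutant.

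In flies, MSL2 is the subunit that brings the male-specific dosage compensation complex to the X chromosome, where the complex raises transcription from high-affinity sites that contain GA-rich sequence. CLAMP, which has zinc fingers, recognises GA-rich sequence across the genome and is known to help MSL2 reach the X. The study, by its title, concerns cooperation and competition between such factors. Most of the genes below are developmental regulators with long gene bodies, several with known roles in the nervous system.

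The authors pooled the libraries of each group before calling peaks, so each group has 1 list and no value below has a replicate error. The lists held between 38 and 466 peaks from 3875205 to 26822838 tags. In 3 lists, those of the CLAMP antibody with MSL2 + CLAMP mutant, CLAMP mutant and CLAMP, peaks held only 0.0377%, 0.0328% and 0.0658% of the tags, against 0.183% to 2.50% in the other 6. A peak had to exceed the negative control 10-fold and its surroundings 4-fold. The minimum distance between peaks of 1 list was set to 300 bp. A site can therefore be missing from a list because it failed a filter or lay near another peak of that list. Its absence does not show that no protein was bound there. Intervals below are exact (Clopper-Pearson) 95% intervals and cover the counting of sites only.

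The 35 sites were spread along the gene bodies, most of them far from either gene end. By gene there were 11 in mamo, 6 in Smr, 5 in Cph, 5 in bi, 3 in acj6, 3 in OdsH and 2 in Sp1. The median distance of a site's centre to the nearer end of its gene was 15.2 kb, the farthest lay 62.8 kb inside, and 1 site lay within 2 kb of an end. The genes are 23.0 to 144 kb long, so most of their length lies more than 2 kb from an end. Whether sites avoid the gene ends was not tested. The gene bodies add up to 458 kb, which gives 0.764 sites per 10 kb. All 502 X regions over the whole of X give 0.213 per 10 kb. Of the 210 X genes at least 20 kb long, 119 held a site (56.7%), with a median of 0.381 sites per 10 kb among those 119. Over all 2705 X genes of the gene table, 255 held a site (9.43%). Per gene the density was 1.30 sites per 10 kb in OdsH, 1.04 in acj6, 1.03 in Smr, 0.762 in mamo, 0.748 in Sp1, 0.687 in bi and 0.480 in Cph. The longest genes, mamo (144 kb) and Cph (104 kb), were thus not the densest.

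**Figure D1:**
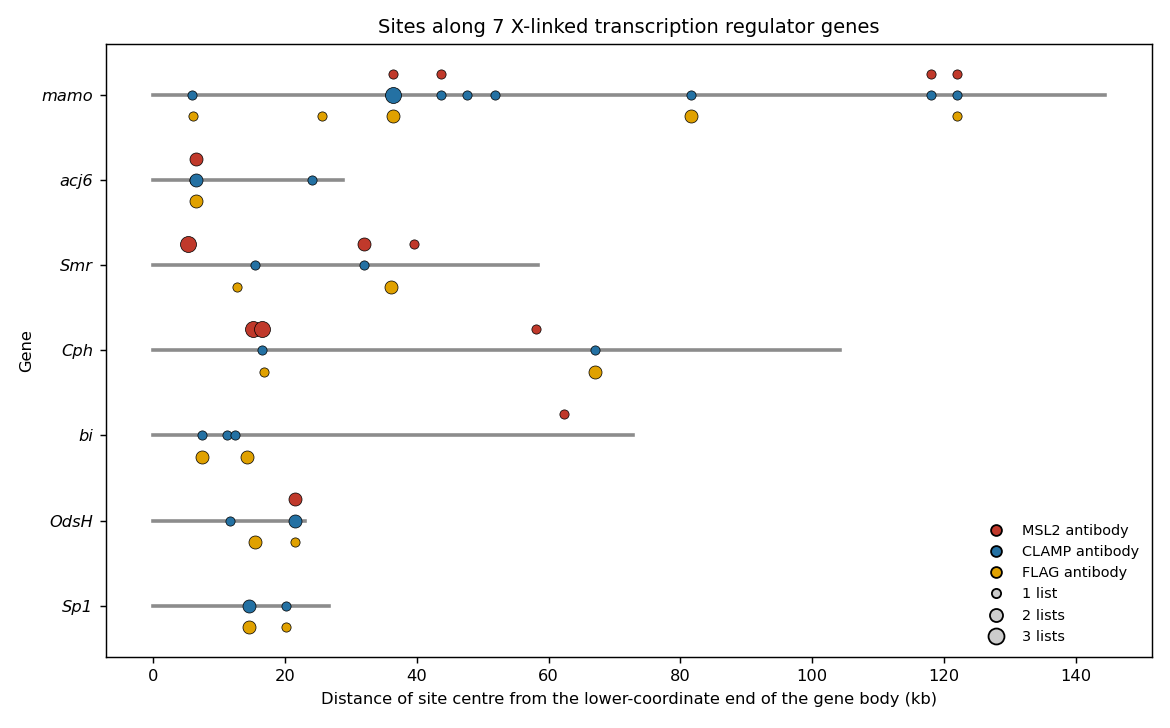
Sites along the 7 genes. The horizontal axis is the distance of a site's centre from the lower-coordinate end of the gene body in kb, each grey line is a gene body to scale, dots above, on and below the line are peaks of the MSL2, CLAMP and FLAG antibodies, and dot area shows how many lists of that antibody held the site. Sp1 has no MSL2 dot, and the 11 sites of mamo span 116 kb.

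The share of the 35 sites found in each list was set beside that of all 502 X regions, which include the 35. MSL2 + CLAMP mutant with the MSL2 antibody had 4 of the 35 sites (11.4%, 3.20 to 26.7), against 17.9% of X regions. MSL2 + CLAMP with that antibody had 13 (37.1%, 21.5 to 55.1), against 40.4%, and MSL2 alone had 5 (14.3%, 4.81 to 30.3), against 14.1%. The order of the 3 lists differed from that of X regions only in that MSL2 + CLAMP mutant came below MSL2 alone, by 1 site.

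With the CLAMP antibody, MSL2 + CLAMP mutant had 4 sites (11.4%, 3.20 to 26.7; X regions 6.77%) and MSL2 + CLAMP had 19 (54.3%, 36.6 to 71.2; X regions 44.2%). CLAMP mutant without MSL2 had 2 (5.71%, 0.700 to 19.2; X regions 3.59%) and CLAMP without MSL2 had 3 (8.57%, 1.80 to 23.1; X regions 8.96%). In the FLAG precipitation the mutant had 9 (25.7%, 12.5 to 43.3; X regions 21.5%) and CLAMP had 16 (45.7%, 28.8 to 63.4; X regions 33.5%). MSL2 + CLAMP with the CLAMP antibody was thus the list with the most sites, as it was among X regions. Because the genes were chosen for peaks of these lists, the shares are a description and do not test for a difference from X. Of the 35 sites, 18 were found in at least 2 lists (51.4%, 34.0 to 68.6), where the share of X regions was 47.2%. No site was in more than 6 lists.

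**Figure D2:**
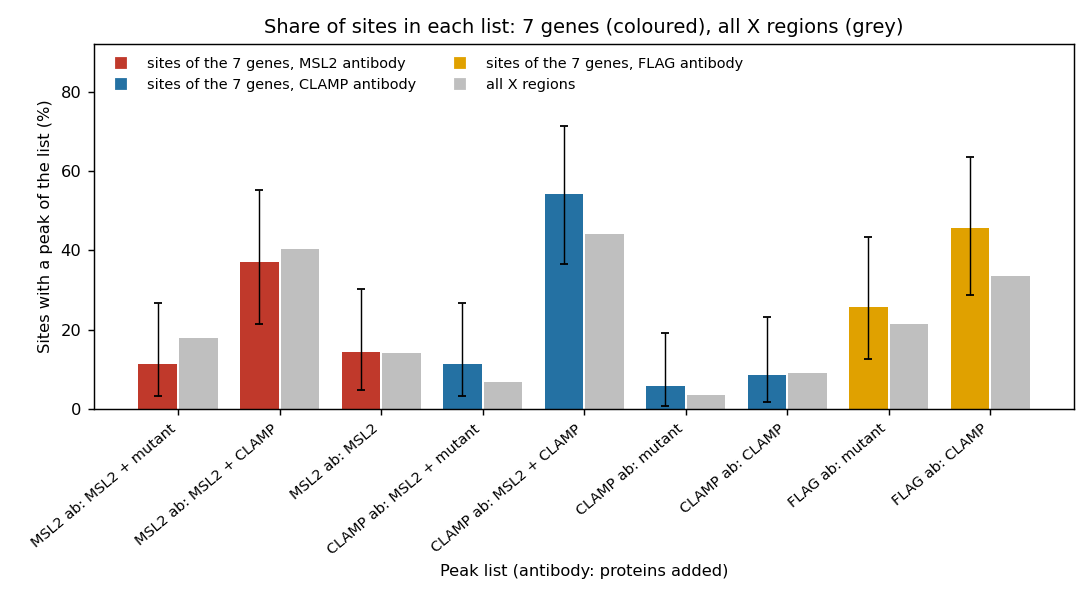
Share of sites found in each peak list. Coloured bars are the 35 sites of the 7 genes with exact 95% intervals, grey bars all 502 X regions, and the vertical axis is the percentage with a peak of the list named on the horizontal axis. The list of MSL2 + CLAMP with the CLAMP antibody is the highest coloured bar at 54.3%, beside 44.2% for X regions.

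Among the zinc finger genes, mamo (CG45477, dm6 X 13846116 to 13990527) held the most sites. Its protein is a BTB zinc finger factor first known for its maternal role in germ cells and also known from neurons of the mushroom body. Sites are numbered from the lower-coordinate end of a gene, since the gene table used here gives no strand. Site 5 of mamo (13882417 to 13882611), 36.4 kb into the gene, was in 6 lists: MSL2 + CLAMP with the MSL2 antibody, 3 of the 4 CLAMP antibody lists and both FLAG lists. It was absent with MSL2 alone and from both lists of MSL2 + CLAMP mutant.

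In mamo, 3 further sites had both MSL2 and CLAMP antibody peaks, each in the mixture of MSL2 and CLAMP. Sites 6 (13889634 to 13889806) and 10 (13964017 to 13964269) were each in the MSL2 + CLAMP lists of both the MSL2 and the CLAMP antibody and in no other list. Site 11 (13967746 to 13967936) was in the same 2 lists and also had a FLAG peak of CLAMP. Site 9 (13927573 to 13927831), near the middle of the gene, was in both FLAG lists and in the CLAMP antibody list of MSL2 + CLAMP, and had no MSL2 peak.

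The remaining 6 mamo sites each stood in 1 list. Sites 1 (13851919 to 13852069) and 4 (13882041 to 13882191) were in the CLAMP antibody list of MSL2 + CLAMP, and sites 2 (13852096 to 13852246) and 3 (13871598 to 13871748) in the FLAG list of CLAMP. Sites 7 (13893598 to 13893748) and 8 (13897843 to 13897993) were in the CLAMP antibody list of MSL2 + CLAMP mutant, in which peaks held 0.0377% of the tags. Only 26 bp separate sites 1 and 2, so peaks of 2 antibodies that count as separate sites lie side by side there. Site 4 lies 225 bp from site 5. MSL2 alone and MSL2 + CLAMP mutant had no MSL2 peak in the whole of mamo, against 4 with MSL2 + CLAMP. Most X regions of MSL2 + CLAMP with that antibody were also missing from these 2 lists. With MSL2 alone 136 were missing and 67 found, and with MSL2 + CLAMP mutant 134 were missing and 69 found.

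Cph (CG9650, X 7137723 to 7241932), known as Chronophage, encodes a zinc finger factor related to BCL11 of vertebrates. Its MSL2 peaks were present without CLAMP at 2 of 3 sites. Sites 1 (7152808 to 7152959) and 2 (7154068 to 7154422), 1.11 kb apart, were in all 3 MSL2 antibody lists, including MSL2 alone and MSL2 + CLAMP mutant. Site 1 had no CLAMP or FLAG peak, and site 2 had a peak of the CLAMP antibody with MSL2 + CLAMP. Only 11 bp beyond site 2, site 3 (7154434 to 7154584) held a FLAG peak of CLAMP. Of the other sites of Cph, 4 (7195746 to 7195896) was an MSL2 peak with MSL2 + CLAMP only. Site 5 (7204734 to 7205003) was in both FLAG lists and the CLAMP antibody list of MSL2 + CLAMP. Sites 4 and 5 also lie inside lncRNA:CR44357, a noncoding RNA gene that overlaps Cph, so they cannot be assigned to either gene by position.

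Sp1 (CG1343, X 9729648 to 9756369) encodes a zinc finger factor needed for leg growth. It held 2 sites and none with the MSL2 antibody. Site 1 (9744072 to 9744444), the widest of the 35 at 373 bp, was in both FLAG lists and in the CLAMP antibody lists of MSL2 + CLAMP mutant and MSL2 + CLAMP. It is a chain of peaks. The peak of MSL2 + CLAMP did not overlap either FLAG peak (centres 222 and 182 bp apart), and without the list of MSL2 + CLAMP mutant site 1 splits into 2 sites. Site 2 (9749644 to 9749796) was in the FLAG list of CLAMP and the CLAMP antibody list of MSL2 + CLAMP, with centres 2 bp apart.

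The homeodomain genes each held a site shared by all 3 antibodies. acj6 (CG9151, X 15350239 to 15379064) encodes a POU homeodomain factor that sets the choice of olfactory receptors in sensory neurons. Its site 2 (15356656 to 15356836) was in 6 lists, those of MSL2 + CLAMP and MSL2 with the MSL2 antibody, MSL2 + CLAMP and CLAMP with the CLAMP antibody, and both FLAG lists. The 6 peak centres lay within 30 bp of each other. All that lacked it were the lists of MSL2 + CLAMP mutant with either antibody and the CLAMP antibody list of the mutant alone. Site 1 (15356311 to 15356461), 194 bp away, was in the CLAMP antibody list of MSL2 + CLAMP mutant only, and site 3 (15374290 to 15374440) in that of MSL2 + CLAMP only.

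OdsH (CG6352, X 17791010 to 17814011) encodes a homeodomain factor known for its part in hybrid male sterility between Drosophila species. Its site 3 (17812322 to 17812609), 1.55 kb from the upper gene end, was in 5 lists, those of MSL2 + CLAMP and MSL2 with the MSL2 antibody, MSL2 + CLAMP and CLAMP with the CLAMP antibody, and CLAMP with FLAG. All 4 lists made with the mutant lacked this site. At acj6 site 2, by contrast, the FLAG peak was present with the mutant as well as with CLAMP. Site 2 of OdsH (17806389 to 17806567) was in both FLAG lists only, and site 1 (17802574 to 17802724) in the CLAMP antibody list of MSL2 + CLAMP only.

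bi (CG3578, X 4412856 to 4485647), also known as optomotor-blind, encodes a T-box factor of wing and optic lobe development. Its sites were clustered, with 4 of the 5 within 14.2 kb of the lower-coordinate end. Site 1 (4420217 to 4420395) was in both FLAG lists and in the CLAMP antibody list of the mutant alone, and site 4 (4426965 to 4427117) in both FLAG lists. Sites 2 (4423970 to 4424120) and 3 (4425216 to 4425366) stood in the CLAMP antibody list of MSL2 + CLAMP. The only MSL2 peak, at site 5 (4475147 to 4475297) with MSL2 + CLAMP, lay 48.0 kb beyond the others. The whole of bi lies within lncRNA:CR32773, so none of its 5 sites can be told apart from sites of that noncoding RNA gene.

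Smr (CG4013, X 12684203 to 12742618) encodes SMRTER, a corepressor that acts with the ecdysone receptor. No Smr site was shared by MSL2 and FLAG peaks, as in Cph, bi and Sp1. Few X regions had both (6.77% with all 3 antibodies and 1.20% with MSL2 and FLAG without the CLAMP antibody). Site 1 (12689416 to 12689596) was in all 3 MSL2 antibody lists and no other. Site 4 (12716089 to 12716261) was an MSL2 site with MSL2 + CLAMP mutant and with MSL2 + CLAMP but not with MSL2 alone, and had a CLAMP antibody peak with MSL2 + CLAMP. Site 6 (12723664 to 12723814) was an MSL2 peak with MSL2 + CLAMP only. The FLAG sites were 2 (12696830 to 12696980), found with CLAMP, and 5 (12720223 to 12720378), found with the mutant and with CLAMP. Site 3 (12699491 to 12699641) was in the CLAMP antibody list of MSL2 + CLAMP. Sites 5 and 6 also overlap lncRNA:CR43963.

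**Figure D3:**
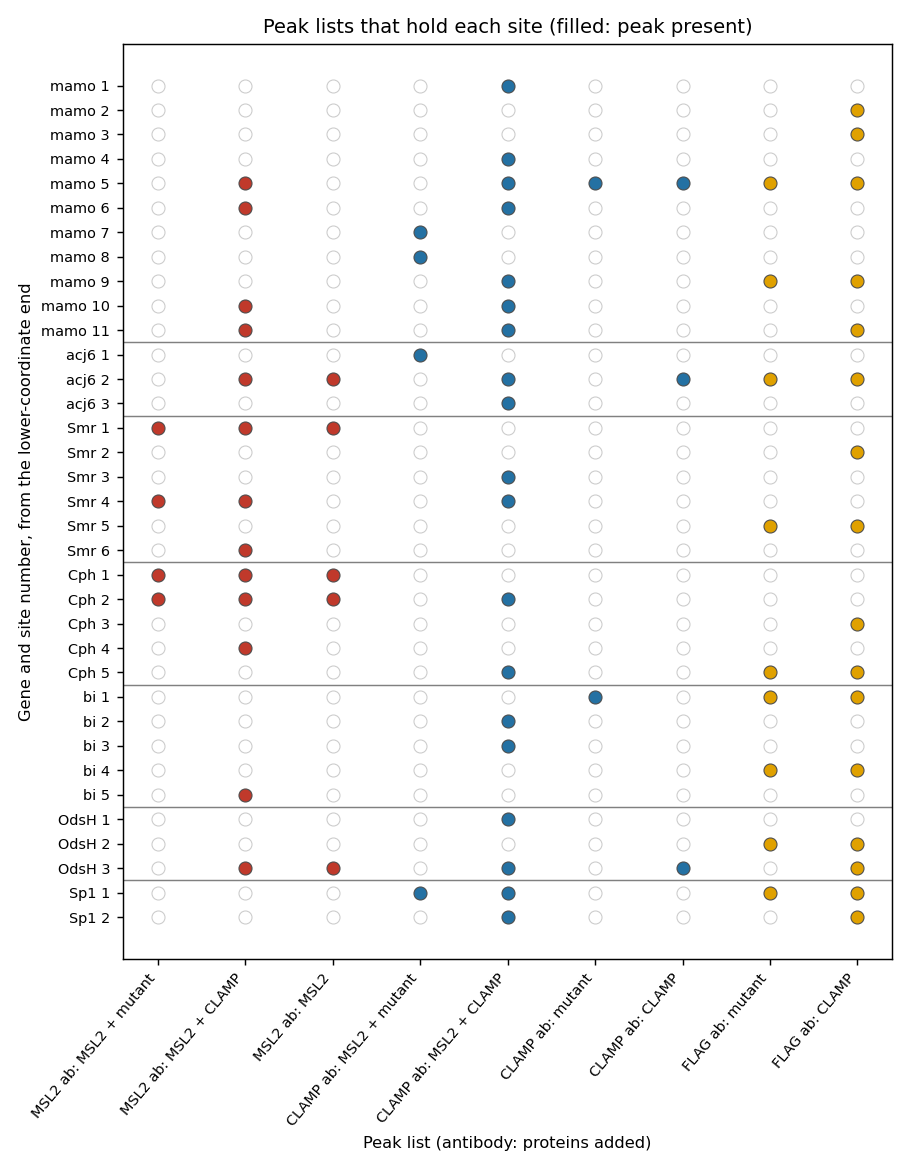
The 35 sites by the 9 peak lists. Each row is a site named by gene and number, each column a list named by antibody and added proteins, and a filled circle marks a peak (red for MSL2, blue for CLAMP, yellow for FLAG). In the leftmost column, MSL2 + CLAMP mutant with the MSL2 antibody, the filled circles are those of Smr 1, Smr 4, Cph 1 and Cph 2.

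For MSL2, the list with CLAMP added contained every site of MSL2 alone in these genes and more. There were 13 sites with MSL2 + CLAMP and 5 with MSL2 alone, and 5 were in both lists: acj6 2, Smr 1, Cph 1, Cph 2 and OdsH 3. The 8 sites with MSL2 + CLAMP only were mamo 5, 6, 10 and 11, Smr 4 and 6, Cph 4 and bi 5. On X as a whole 67 of the 207 regions in either list were in both (32.4%), 136 were with CLAMP only and 4 with MSL2 alone only. The member counts thus differed in the same direction as those of X regions. The whole lists held 466 and 132 peaks.

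With the mutant in place of CLAMP, MSL2 sites were found in Smr and Cph and in none of the other 5 genes. MSL2 + CLAMP mutant and MSL2 alone shared Smr 1, Cph 1 and Cph 2. Smr 4 was in the list with the mutant only, and acj6 2 and OdsH 3 in that of MSL2 alone only. Of X regions in either list, 29.8% were in both. Against MSL2 + CLAMP, all 4 sites of MSL2 + CLAMP mutant were in both lists and 9 were with CLAMP only, among them all 4 of mamo. Of X regions in either, 30.8% were in both.

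The sites that MSL2 held with the mutant present had no FLAG peak of CLAMP or of the mutant, where peaks had to overlap by 1 bp. A FLAG peak lay at 0 of 4 sites with MSL2 + CLAMP mutant (0% to 60.2%), at 4 of 13 with MSL2 + CLAMP and at 2 of 5 with MSL2 alone. The shares of X regions were 3.33%, 19.2% and 36.6% in that order. The 2 sites of MSL2 alone that had a FLAG peak, acj6 2 and OdsH 3, were those missing with the mutant, and the 3 that had none were those found with it. At acj6 2 the FLAG peak was present with CLAMP and with the mutant, but at OdsH 3 with CLAMP only. The 5 sites of MSL2 alone are themselves among the X regions counted above, so they are no independent support for the X shares. The split also depends on the merging, since Cph 2 lies 11 bp from Cph 3, a FLAG peak of CLAMP. If peaks within 500 bp are merged, Cph 2 and Cph 3 are 1 site that has a FLAG peak, and the split no longer holds.

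**Figure D4:**
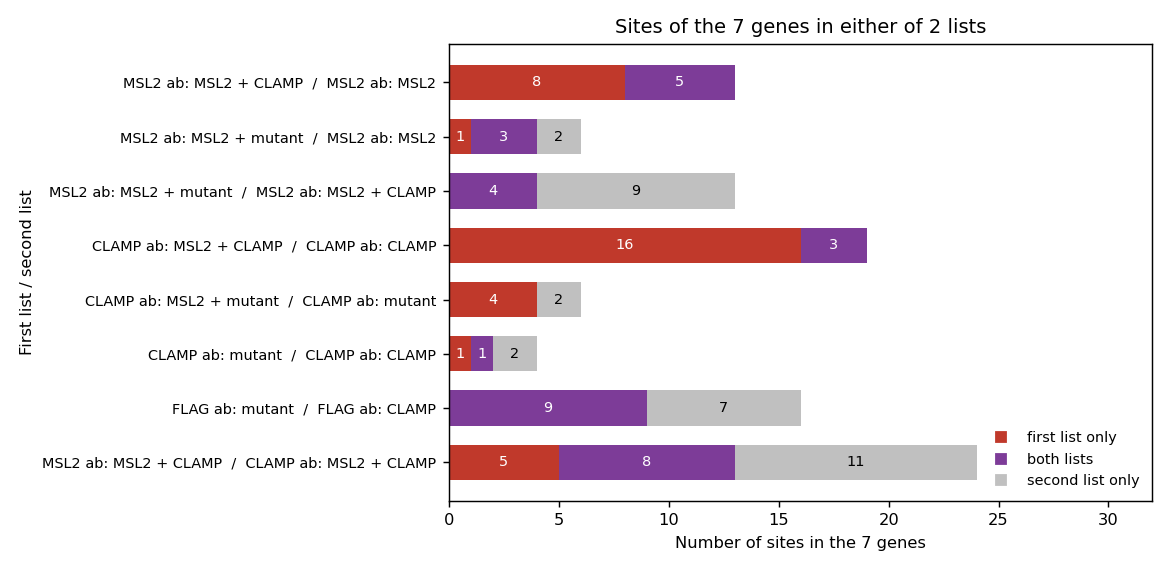
Sites of the 7 genes in either of 2 lists. Each bar is a pair of lists, named on the vertical axis with the first list before the slash, and its segments count the sites in the first list only (red), in both (purple) and in the second only (grey). The bar of MSL2 + CLAMP mutant against MSL2 + CLAMP has 4 sites in both, 9 in the second list only and none in the first only.

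The CLAMP antibody gave many more sites when MSL2 was present with CLAMP. There were 19 with MSL2 + CLAMP and 3 with CLAMP alone, and the 3 of CLAMP alone, mamo 5, acj6 2 and OdsH 3, were in both. The FLAG list of CLAMP, made without MSL2, had 16 sites. With the CLAMP antibody, the lists of MSL2 + CLAMP and CLAMP held 429 and 74 peaks, with 0.627% and 0.0658% of tags in peaks. These 2 lists held 222 and 45 of the 502 X regions, so the member counts differed in the same direction as those of X regions. Of X regions in either list 8.98% were in both, and 23 were with CLAMP alone only, a class with no member at an overlap of 1 bp. If the 2 peaks must overlap by 50% of both, 2 sites are shared and 1 is with CLAMP alone only, since the peaks at OdsH 3 are centred 108 bp apart. All 7 genes had at least 2 sites with MSL2 + CLAMP, led by mamo with 7. Without mamo 12 sites are left in that list. Of the 19 sites, 8 had a FLAG peak (X regions 36.0%), and all 3 of CLAMP alone did (X regions 46.7%). Sp1 1 is among the 8, though its peak of MSL2 + CLAMP overlaps neither FLAG peak and is joined to them through the list of MSL2 + CLAMP mutant.

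For the mutant the CLAMP antibody lists with and without MSL2 had no site in common. Sites mamo 7, mamo 8, acj6 1 and Sp1 1 were in the list of MSL2 + CLAMP mutant, and mamo 5 and bi 1 in that of the mutant alone. Of X regions in either, 8.33% were in both. A FLAG peak lay at Sp1 1 alone of the first 4 (X regions 29.4%) and at both sites of the mutant alone (X regions 55.6%). Between the mutant and CLAMP without MSL2, mamo 5 was in both lists, bi 1 with the mutant only, and acj6 2 and OdsH 3 with CLAMP only (X regions in both, 21.2% of those in either). With 2 to 4 sites per list, and with the low shares of tags in peaks given above, these comparisons rest on very few peaks.

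In the FLAG precipitation, every site of the mutant in these genes was also a site of CLAMP. There were 9 with the mutant and 16 with CLAMP. The 9 in both lists were mamo 5 and 9, acj6 2, Smr 5, Cph 5, bi 1 and 4, OdsH 2 and Sp1 1. The 7 with CLAMP only were mamo 2, 3 and 11, Smr 2, Cph 3, OdsH 3 and Sp1 2. Both FLAG sites of bi were thus in both lists, while mamo had 3 of its 5 with CLAMP only. On X 62.4% of the regions in either list were in both, and 2 were with the mutant only.

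Within the mixture of MSL2 and CLAMP, both proteins were found at 8 sites of these genes. The MSL2 antibody had 5 sites that the CLAMP antibody lacked (Smr 1 and 6, Cph 1 and 4 and bi 5), and the CLAMP antibody had 11 that the MSL2 antibody lacked. The shared sites were mamo 5, 6, 10 and 11, acj6 2, Smr 4, Cph 2 and OdsH 3. Of X regions in either list, 20.4% were in both. If the 2 peaks must overlap by 50% of both, 5 sites are shared, since the peaks at mamo 10, Cph 2 and OdsH 3 are centred 102, 135 and 121 bp apart. Without mamo 4 sites are shared.

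Sorted by antibody over all lists, 10 sites had CLAMP antibody peaks only, 7 FLAG peaks only and 5 MSL2 peaks only. These classes made up 28.9%, 15.3% and 29.5% of X regions. In addition 5 had CLAMP and FLAG peaks (X regions 10.6%), 4 had MSL2 and CLAMP antibody peaks (7.77%), 4 had all 3 (6.77%) and none had MSL2 and FLAG without the CLAMP antibody (1.20%). The 5 sites with MSL2 peaks only are 14.3% of the 35 (4.81 to 30.3). The 4 sites of all 3 antibodies were mamo 5, mamo 11, acj6 2 and OdsH 3.

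Distances between peak centres within a site are limited by the merging, since peaks in the 7 genes are all 151 bp wide and had to overlap, directly or through a chain, to form a site. The median distance between centres of 2 MSL2 antibody peaks at a site was 7.50 bp (12 pairs, 0 to 69), that between 2 FLAG peaks was 5.00 bp (9 pairs, 2 to 40), and that between 2 CLAMP antibody peaks was 18.0 bp (6 pairs, 6 to 108). Between antibodies it was 22.0 bp for CLAMP and MSL2 (19 pairs, 1 to 204), 30.0 bp for CLAMP and FLAG (24 pairs, 1 to 222) and 16.0 bp for FLAG and MSL2 (9 pairs, 0 to 72). On X the medians were 14.0 bp for MSL2 pairs, 11.0 bp for FLAG pairs, 20 bp for CLAMP antibody pairs, and 31.0, 30.0 and 30.0 bp between antibodies. Pairs of 1 site share peaks and are not independent. At Cph 2 the MSL2 centres lay 75, 144 and 81 bp from the site's start for MSL2 + CLAMP mutant, MSL2 + CLAMP and MSL2, and the CLAMP antibody centre at 279 bp. With CLAMP present the MSL2 centre was thus nearer to the CLAMP centre and to the FLAG peak of site 3 beyond it. At OdsH 3 the MSL2 centre was at 91 bp with MSL2 + CLAMP and 147 bp with MSL2 alone, and the CLAMP antibody centre at 212 bp with MSL2 + CLAMP and 104 bp with CLAMP alone. There the MSL2 centre lay 121 bp from the CLAMP antibody centre of the mixture with MSL2 + CLAMP and 65 bp from it with MSL2 alone. From the CLAMP antibody centre of CLAMP alone it lay 13 bp with MSL2 + CLAMP and 43 bp with MSL2 alone, and from the FLAG centre of CLAMP 16 and 72 bp. Whether the MSL2 centre was nearer or farther with CLAMP present thus depended, at OdsH 3, on the list it was measured from. No error can be given for these positions.

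**Figure D5:**
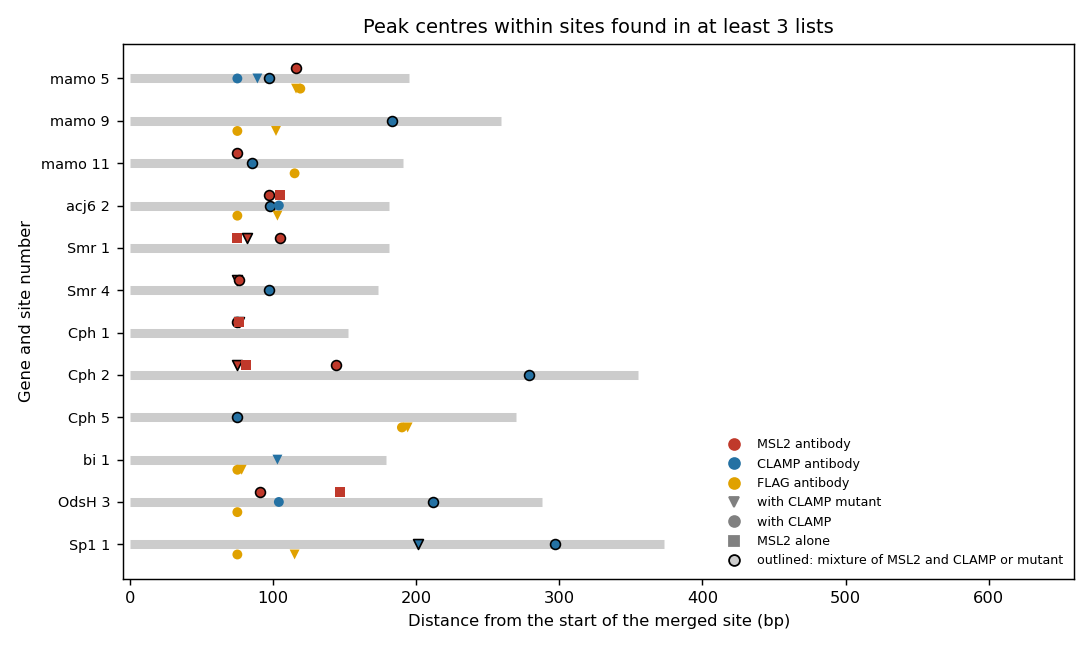
Peak centres within the 12 sites found in at least 3 lists. The horizontal axis is the distance in bp from the start of the merged site (grey bar), colours give the antibody, triangles the mutant, circles CLAMP and squares MSL2 alone, and outlined symbols the mixtures with MSL2. Symbols nearly coincide at Cph 1 (75 to 76 bp) and are farthest apart at Sp1 1 (75 to 297 bp).

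Just outside the gene bodies, regions lay 442 bp below Sp1 (9729056 to 9729206, FLAG list of CLAMP), 1133 bp below bi (4411573 to 4411723, CLAMP antibody list of MSL2 + CLAMP) and 1852 bp below mamo (13844114 to 13844264). The last lies in AMPdeam, in the list of MSL2 + CLAMP mutant with the MSL2 antibody. The members nearest to a gene end on the inside were OdsH 3 (1.55 kb) and acj6 3 (4.70 kb). With 2 kb added at either end of the genes, the count is 38 sites.

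Other X-linked transcription regulators held fewer sites for their length. Of 48 such genes listed from general knowledge, 15 held at least 1 site, 26 sites in all over 809 kb (0.321 per 10 kb). Those with sites had a median length of 21.6 kb and those without 7.20 kb. The 7 genes are all at least 20 kb long, as were 13 of the 48, of which 9 held a site. MSL2 + CLAMP with the CLAMP antibody had the most sites of the 48 genes (14 of the 26), as in the 7 genes, followed by MSL2 + CLAMP with the MSL2 antibody (11). The FLAG list of CLAMP, which came second in the 7 genes with 16 of 35 sites, had 5 of the 26. Lim1, a LIM homeodomain gene, br, the ecdysone-response gene Broad, and nej, the CBP coactivator gene, held 3 each. In nej, 1 site (9679952 to 9680115) was in all 3 MSL2 antibody lists and no other, as at Smr 1 and Cph 1. In br all 3 were in the CLAMP antibody list of MSL2 + CLAMP, and those of Lim1 each stood in 1 list. CG32767 and CrebB held 2 each, and 1 site of CG32767 (5077320 to 5077489) was also in all 3 MSL2 antibody lists and no other. Genes such as ct, Bx and Myc, also known regulators, had none. Since the 7 genes were selected for holding sites and these were not, the difference in density cannot be read as a property of the 7.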

How the data were processed

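Peak lists of 9 groups (21 libraries) were analysed. The 3 negative control groups (7 libraries) enter only as the authors' input. Per the submitters' processing notes, Bowtie2 2.2.9, SAMtools 1.9, HOMER 4.9 and genome build dm6 were used. Per the file headers, HOMER findPeaks (factor style) ran on 1 merged tag set per group against the merged negative control of the same antibody. It required 10-fold over that control, 4-fold over the surrounding 10000 bp, each at a Poisson p of 1e-04, and a false discovery rate of 0.001. The minimum distance between peaks was 300 bp. Lists of the same antibody therefore share their control. The score in the deposited lists is 1 in every line and carries no measurement, so no stricter score threshold exists.

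Starts were converted to 1-based coordinates and peaks merged in Python 3.11.15. bedtools 2.31.1 gave the same 1098 regions and 35 sites. Gene bodies were read from RefSeq annotation of Release 6 plus ISO1 MT, that is dm6, without strand or exons. Sequence was not used here, so the GA motif analysis planned in the design was not made. The merging was tested on simulated data, in which sites lay far apart and all peaks of a site overlapped directly. The simulation therefore did not cover chains of peaks or sites close to each other. Intervals used scipy 1.17.1 and figures matplotlib 3.10.9. All 7 genes and all their sites are described. Of the other X-linked regulators and of other X genes, the 5 with the most sites were to be named, ties by symbol. The 7 genes and all lists were chosen with earlier results of these data known. The labels do not say whether libraries of a group came from separate assemblies.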

Additional observations from a re-analysis of the deposited data

How the results depend on the processing

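Of 96 values recomputed under 6 alternatives, 75 stayed within 1.5 times the value reported and 21 did not. Merging peaks within 500 bp (31 sites) and adding 2 kb to the gene ends (38 sites) left the counts per list and of shared sites within 1.5 times. With 2 kb added, MSL2 + CLAMP mutant had 2 sites not shared with MSL2 alone in place of 1, and 1 not shared with MSL2 + CLAMP in place of 0. With reciprocal 50% overlap, CLAMP with and without MSL2 shared 2 sites by the CLAMP antibody in place of 3, and 1 in place of 0 was with CLAMP alone only. Keeping the upper 50% of every list by line order, whose meaning the headers do not state, left 9 of 35 sites and 0.196 sites per 10 kb. The MSL2 antibody then had 2, 3 and 1 sites with MSL2 + CLAMP mutant, MSL2 + CLAMP and MSL2. The CLAMP antibody had 1, 5 and 1 with MSL2 + CLAMP mutant, MSL2 + CLAMP and CLAMP mutant, and FLAG had 2 with the mutant and 2 with CLAMP. Sites in both lists numbered 1 for MSL2 + CLAMP against MSL2 alone, 1 for MSL2 + CLAMP mutant against MSL2 alone, 2 for MSL2 + CLAMP mutant against MSL2 + CLAMP, 2 for FLAG mutant against CLAMP and 0 for the antibodies within the mixture of MSL2 and CLAMP. Fewer peaks enter by construction. With reciprocal 50% overlap, 5 sites were shared within that mixture. Leaving out mamo, a choice made after seeing the data, gave 24 sites. The CLAMP antibody then had 2 sites with MSL2 + CLAMP mutant, 12 with MSL2 + CLAMP and 1 with CLAMP mutant, 0 were shared between the mutant and CLAMP, and 4 within the mixture. Leaving out the 3 lists with under 0.1% of tags in peaks, also chosen after seeing the data, gave 33 sites. No paired analysis was possible because the lists pool all libraries of a group. Leaving out a library could not be done for the same reason.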

Other observations

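Of X genes that do not overlap the 7, those with the most sites were Sh, the Shaker potassium channel gene (12 sites in 139 kb), mgl, which encodes a megalin receptor (10 in 142 kb), Tomosyn, an inhibitor of synaptic release (9 in 21.8 kb), shakB, an innexin gene (9 in 166 kb), and CG15465 (7 in 169 kb). The eag gene, which encodes another potassium channel, also held 7 (in 54.5 kb). CG15465 has the same start and end in the gene table as rg, so their 7 sites are the same. Of all X genes, only Sh held more sites than mamo with its 11. Tomosyn had 4.12 sites per 10 kb, the highest density of the 210 X genes at least 20 kb long, against 0.764 over the 7 regulator genes together.

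Some neighbouring sites lay close to each other without overlapping. In the 7 genes 4 of 28 pairs of neighbouring sites were within 500 bp (14.3%), where 26 of 501 pairs of neighbouring X regions were (5.19%). The 4 pairs were mamo 1 and 2 (26 bp), mamo 4 and 5 (225 bp), acj6 1 and 2 (194 bp) and Cph 2 and 3 (11 bp). In each pair the single-list site was a CLAMP antibody or FLAG peak. X regions include intergenic stretches, so the 2 shares are not over the same kind of pairs. The 7 genes were also chosen for holding peaks and have 0.764 sites per 10 kb, against 0.213 on X. Closer neighbours in them are therefore no finding.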
